A study of Mus musculus with 7 samples.

Results

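The genes described here are 10 members of the BAFF receptor, TNF receptor and TRAF families in activated mouse B cells. The rule lists them by gene name and uses no measured value, although the list was drawn up with earlier results of these data known. They are 10 of 46959 features in the deposited table. Tnfrsf13b, Tnfrsf13c and Tnfrsf17 encode the receptors TACI, BAFF-R and BCMA. Tnfrsf8, Tnfrsf1b and Fas encode the receptors CD30, TNFR2 and Fas. Traf1, Traf2, Traf3 and Traf5 encode adaptor proteins that bind the tails of such receptors.

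RNA was measured by sequencing in 4 cultures labelled cKO MED1, named for a conditional knockout of the Mediator subunit gene Med1, and in 3 wild-type (WT) cultures. All 7 held B cells purified from spleen and grown for 4 days with lipopolysaccharide (LPS, 1 µg/mL), a bacterial activator of B cells, and interleukin 4 (IL-4, 20 ng/mL). The series title places the study's question at the heavy chain genes of antibodies. The strain, age and sex of the mice and the Cre driver of the deletion are not given in the sources used here. Neither is whether the cultures came from separate mice. The p-values therefore set each difference against the spread between these cultures alone, estimated in part from the spread of other genes.

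BAFF and APRIL are ligands of the TNF family that keep B cells and plasma cells alive. BAFF-R carries the survival signal of resting mature B cells, TACI takes part in class switching and restrains B cell numbers, and BCMA supports long-lived plasma cells. TRAF2 and TRAF3 hold down the kinase NIK, which starts the non-canonical branch of NF-kB, and this hold is released when TRAF3 is drawn to an engaged receptor such as BAFF-R or CD40.

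Among the 10 genes, Tnfrsf8 was higher in cKO MED1 cells than in WT cells and Traf5 was lower, and no other member passed the test. Each of these calls held under 11 of 21 alternative settings, and neither held without WT replicate 1 or without WT replicate 2. Tnfrsf8 stood at 132% of its WT level and Traf5 at 80.7%. The means of the BAFF receptor genes Tnfrsf13b, Tnfrsf13c and Tnfrsf17 lay below WT in cKO MED1 cells, with adjusted p-values from limma of 0.0524, 0.237 and 0.0520, all above the threshold of 0.05. Levels below are normalised reads, which are read counts scaled to a common library size. Fold changes are cKO MED1 minus WT on the scale of log2(normalised reads + 1), with a standard error (SE) and a 95% interval. Adjusted p-values come from a limma fit across all 18062 tested genes with Benjamini-Hochberg adjustment.

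The 2 called genes are shown by the DNA around their annotated starts, because they passed the test in opposite directions. Each sequence runs 5′ to 3′ on the gene's own strand over 300 bases, 250 before the start and 50 after it, as RefSeq gives it for GRCm38.p6. Capitals mark matches to the NF-kB motif and to the E-box CACGTG, searched on both strands. The Tnfrsf8 window is chr4:145315115-145315414 and the Traf5 window is chr1:192092550-192092849, both on the minus strand.
Tnfrsf8: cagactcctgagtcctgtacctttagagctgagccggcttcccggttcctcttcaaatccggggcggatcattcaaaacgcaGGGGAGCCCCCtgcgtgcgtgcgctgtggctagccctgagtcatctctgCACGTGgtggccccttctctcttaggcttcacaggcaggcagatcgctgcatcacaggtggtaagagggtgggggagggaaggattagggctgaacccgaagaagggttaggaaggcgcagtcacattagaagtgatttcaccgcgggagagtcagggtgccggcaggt
Traf5: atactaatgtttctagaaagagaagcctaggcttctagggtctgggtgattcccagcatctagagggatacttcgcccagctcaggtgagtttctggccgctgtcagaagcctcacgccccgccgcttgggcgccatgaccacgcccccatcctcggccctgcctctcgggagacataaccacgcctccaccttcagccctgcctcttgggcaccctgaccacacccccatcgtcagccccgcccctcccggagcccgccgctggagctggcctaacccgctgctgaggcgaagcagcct

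The Tnfrsf8 window held 2 overlapping matches to the NF-kB motif, at -168 and -167 from the start, and 1 E-box at -119. The Traf5 window held no match to either motif or to the STAT6-type motif of TTC and GAA spaced 4 bases apart. Among the other members, the Traf3 window held 1 NF-kB match at -10, written GGGGATTTCC, and the Fas window held 1 E-box at -110. The remaining 6 windows held none of the 3 motifs. Of 32851 RefSeq promoter windows of this length, 8.46% held the NF-kB motif, 7.15% the E-box and 6.95% the STAT6-type motif. These matches describe letters in the windows, and binding was not measured.

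Recovered reads numbered 31937372 to 49603193 in cKO MED1 libraries and 54736580 to 61149274 in WT libraries. The lowest WT total exceeded the highest cKO MED1 total, so depth and genotype cannot be told apart. Med1 itself averaged 2361 ± 186 normalised reads in cKO MED1 cells (SD, n = 4) and 4379.5 ± 326 in WT cells (SD, n = 3). Its log2 fold change was -0.89 (SE 0.093) with an adjusted p of 0.000174 by limma, and it was called under all 21 alternative settings tried. Genes of the Y chromosome gave at most 0.354 CPM (the count relative to the library's total) in cKO MED1 replicates 1, 2 and 4 and 254 CPM in cKO MED1 replicate 3, against 300.3 to 319.6 CPM in the WT libraries. The genotypes thus nearly coincide with the presence of Y-linked reads, and differences by genotype and by sex cannot be told apart except through cKO MED1 replicate 3. Reads from 1453 olfactory and vomeronasal receptor genes, which B cells are not known to use, came to 0.196 to 0.893 normalised reads per kb of exon in cKO MED1 libraries and 0.0918 to 0.204 in WT libraries. That level would make up at most 5.68% of a library's value for Tnfrsf17 and at most 0.566% for any other member.

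The labelled cell type was checked against 8 markers each of B cells and of antibody-secreting cells. The B cell markers summed to 124543 to 139365 normalised reads in cKO MED1 libraries and 173080 to 187193 in WT libraries, without overlap, and 5 of the 8 were called lower. The antibody-secreting markers summed to 106594 to 140078 reads in cKO MED1 libraries and 132404 to 184283 in WT libraries, with 2 of 8 called higher and 3 lower. In bulk RNA, fewer cells of a type and less RNA per cell cannot be told apart. The T cell list summed to 2668 to 4129.9 reads in cKO MED1 libraries and 2764 to 3765 in WT libraries. Of its 7 tested genes, 1 was called lower and none higher, while the median log2 fold change was 0.52. Within the T cell list, Cd3e had at most 9.15 normalised reads in any library and was not tested, and 3 of the 8 genes averaged under 10. The NK cell list summed to 86.7 to 263 reads in cKO MED1 libraries and 170.5 to 266 in WT libraries, and the macrophage list to 512 to 692 in cKO MED1 libraries and 406 to 649 in WT libraries. The neutrophil list summed to 19.0 to 78.7 reads in cKO MED1 libraries and 2.75 to 11.4 in WT libraries, and 5 of its 6 genes averaged under 10, while the 1 tested gene was called higher (log2 fold change 2.0). The dendritic cell list, led by Flt3, summed to 3993 to 5166 reads in cKO MED1 libraries and 2605 to 3511 in WT libraries, and 3 of its 4 tested genes were called higher (median 0.84). The stromal and endothelial list summed to 1027 to 1226 in cKO MED1 libraries and 1396 to 1633 in WT libraries. That sum was mostly Pecam1, which was called lower at -0.54 (limma adjusted p = 0.00344), whereas the list's median was 1.25 and 1 gene was called higher. The part of other cell types in the results was not tested. No gene of these lists was at 0 in all 7 libraries.

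Per length of exon, BAFF-R and TACI stood far above the other members in both genotypes. Levels per length are normalised reads given as CPM and divided by kb of exon. In this unit, Tnfrsf13c averaged 72.6 ± 0.987 in cKO MED1 cells and 79.7 ± 4.49 in WT cells, and Tnfrsf13b averaged 47.9 ± 3.20 in cKO MED1 cells and 57.2 ± 2.62 in WT cells (SD, n = 4 and 3, here and below). The death receptor gene Fas averaged 16.2 ± 2.31 in cKO MED1 cells and 15.1 ± 2.4 in WT cells. Tnfrsf8 averaged 19.6 ± 1.27 in cKO MED1 cells and 14.9 ± 2.95 in WT cells. Tnfrsf8 and Fas overlapped each other in their library ranges within both genotypes, and their order differed between the genotypes. Traf1 and Tnfrsf1b came next, at 12.3 ± 1.26 and 10.5 ± 0.511 in cKO MED1 cells and 10.6 ± 0.821 and 9.50 ± 0.745 in WT cells.

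Traf2 and Traf3 were close to each other, at 5.25 ± 0.384 and 5.13 ± 0.211 in cKO MED1 cells and 5.91 ± 0.383 and 5.97 ± 0.416 in WT cells. Traf5 followed at 3.22 ± 0.112 in cKO MED1 cells and 3.99 ± 0.303 in WT cells. The plasma cell receptor gene Tnfrsf17 was lowest, at 0.362 ± 0.216 in cKO MED1 cells and 0.813 ± 0.169 in WT cells. Neighbours in this order overlapped for Tnfrsf8 with Fas, Traf1 with Tnfrsf1b and Traf2 with Traf3, and all other neighbouring ranges were apart. For scale, Cd40, a TNF receptor that drives B cell help, averaged 18.1 ± 2.20 in cKO MED1 cells and 18.7 ± 2.74 in WT cells.

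**Figure D1:**
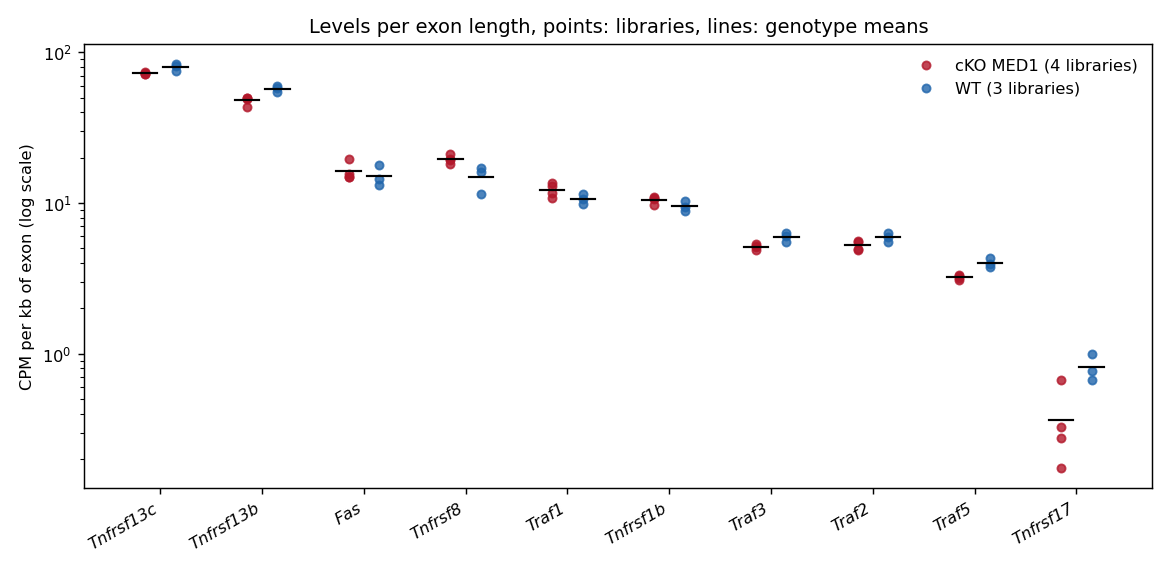
Level of each gene per exon length, in CPM per kb of exon on a log axis; points are libraries (4 cKO MED1 in red, left, and 3 WT in blue, right) and lines are means. Tnfrsf13c and Tnfrsf13b average above 47 in both genotypes, while Tnfrsf17 averages 0.362 in cKO MED1 cells and 0.813 in WT cells.

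Over the set, 1 of 10 genes was called higher in cKO MED1 cells, beside 13.4% of all tested genes, and 1 of 10 was called lower, beside 14.6% (28% in either direction). Both member shares lie near the background, so the counts of calls do not set these genes apart. Of the 10, 8 belong to the third of tested genes with the highest mean, in which 27.6% were called lower and 5.4% higher. The groups did not overlap for 4 members that were lower in cKO MED1 cells, beside 19.8% of all genes, and for 1 that was higher, beside 19.3% (39.1% in either direction). Fold changes were below 0 for 6 members and above 0 for 4, with a median of -0.15 beside 0.04 over all tested genes. Unadjusted p from limma was under 0.05 for 5 of the 10 members, beside 7880 of all 18062 tested genes, so this count does not set them apart either. All 10 genes passed the filter on low counts.

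**Figure D2:**
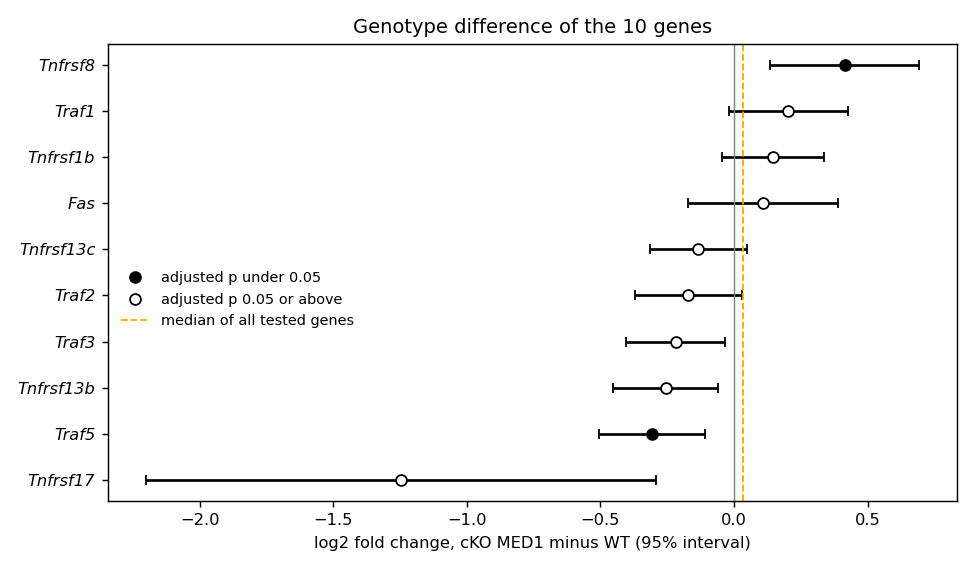
Log2 fold change of each gene, cKO MED1 minus WT, with its 95% interval; filled points have a limma adjusted p under 0.05 and the dashed line is the median of all tested genes. Tnfrsf8 at 0.41 and Traf5 at -0.31 are the 2 filled points, and Tnfrsf17 has the widest interval, -2.20 to -0.29.

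Tnfrsf13b encodes TACI, a receptor for both BAFF and APRIL, and lies on chromosome 11 at 61126755 to 61149372 (plus strand; GRCm38 for all positions). It had 6748, 6707, 6794 and 5880.2 normalised reads in cKO MED1 replicates 1 to 4, against 8114, 7857 and 7409 in WT replicates 1 to 3. Every cKO MED1 library lay below every WT library, and cKO MED1 replicate 4 lay below the other 3. The means were 6532 ± 436 in cKO MED1 cells and 7794 ± 357 in WT cells, which is 83.8% of WT. The log2 fold change of -0.26 (SE 0.090, interval -0.45 to -0.06) had an unadjusted p of 0.0151 and a limma adjusted p of 0.0524, just above the threshold, so the gene was not called. It was called under 5 of 21 alternatives, which were the authors' scaling, total reads, no filter, DESeq2 and the fit without cKO MED1 replicate 1 (-0.29, limma adjusted p = 0.0363).

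Tnfrsf13c encodes BAFF-R, which binds BAFF alone, and lies on chromosome 15 at 82221743 to 82224369 (minus strand). It had 7109, 7052, 7159 and 7280.2 normalised reads in cKO MED1 libraries, against 7355, 7978 and 8209 in WT libraries. The highest cKO MED1 library and the lowest WT library were close, and the groups did not overlap. At 91.1% of WT, the log2 fold change was -0.13 (SE 0.083, interval -0.32 to 0.05, limma adjusted p = 0.237), and it was called under none of the 21 alternatives. The log2 ratio of Tnfrsf13b to Tnfrsf13c, which no scaling of a library can alter, was -0.08, -0.07, -0.08 and -0.31 in cKO MED1 libraries and 0.14, -0.02 and -0.15 in WT libraries. These ratios overlapped between the genotypes. The sum of the B cell markers, given above, also lay lower in every cKO MED1 library than in any WT library. Of the 8 markers, 3 were not called, and the highest log2 fold change among them all was 0.21. The part of these markers' cells in the values of Tnfrsf13b and Tnfrsf13c was not tested.

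Tnfrsf17 encodes BCMA, a receptor of plasma cells, and lies on chromosome 16 at 11313812 to 11320074 (plus strand). It had 10.8, 6.82, 26.3 and 12.8 normalised reads in cKO MED1 replicates 1 to 4, against 30.3, 26.1 and 39.1 in WT replicates 1 to 3. Replicate 3 of cKO MED1 reached the lowest WT library, and the other 3 lay below all WT libraries. The means of 14.2 ± 8.47 in cKO MED1 cells and 31.8 ± 6.64 in WT cells gave the largest difference of the set, a log2 fold change of -1.24 (SE 0.436). Its interval ran from -2.20 to -0.29 and its limma adjusted p was 0.0520. The gene was called under 9 of 20 alternatives, among them the fit without cKO MED1 replicate 3 at -1.56 (limma adjusted p = 0.0237), while with the Y-linked reads as a covariate it was -0.25 with a limma adjusted p of 0.805.

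Other genes of antibody-secreting cells did not all move with Tnfrsf17. Jchain, which links antibody units into polymers, and Sdc1, the plasma cell surface protein CD138, were called lower, at log2 fold changes of -1.58 and -1.22 (limma adjusted p = 0.00455 and 0.00522). Prdm1, the transcription factor that directs plasma cell formation, was called higher, at 0.71 (limma adjusted p = 0.00785). Without the Y-linked covariate these 3 calls were lost under 1 alternative at most, that of Prdm1 without both cKO MED1 replicates 3 and 4 (0.60, limma adjusted p = 0.0664). With it, Jchain was -0.69, Sdc1 -0.56 and Prdm1 0.83, with limma adjusted p-values of 0.204, 0.216 and 0.125. The cKO MED1 library with the most Tnfrsf17, replicate 3, was also the one with the most Jchain, at 27607 normalised reads against 10728 to 13429.9 in the other cKO MED1 libraries. The part of a changed number of antibody-secreting cells in the Tnfrsf17 values was not tested.

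**Figure D3:**
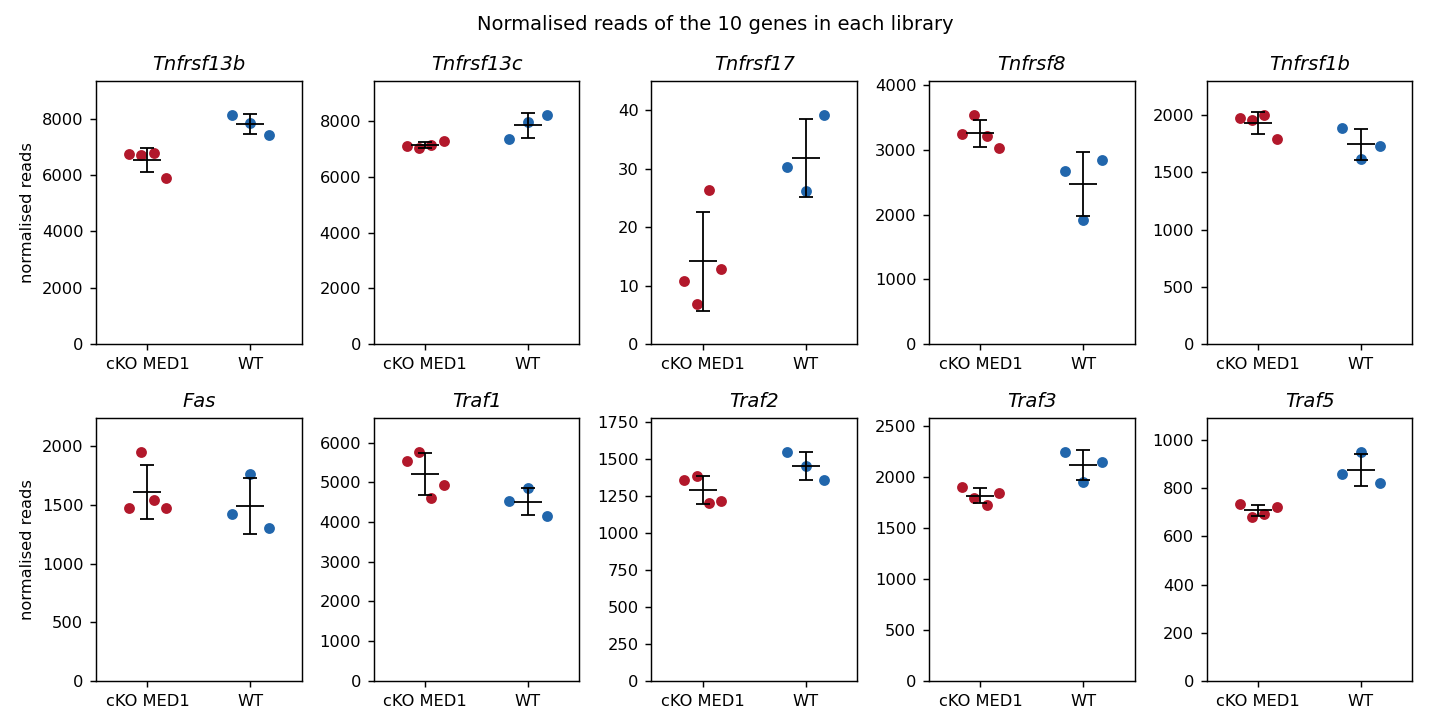
Normalised reads of the 10 genes in each library, with cKO MED1 (red, n = 4) left of WT (blue, n = 3); long bars are means, whiskers are SD, and each panel has its own axis from 0. The groups are apart for Tnfrsf13b, Tnfrsf13c, Tnfrsf8, Traf3 and Traf5 and overlap for the other 5.

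Tnfrsf8 encodes CD30, a receptor that appears on activated lymphocytes and binds the ligand encoded by Tnfsf8. The gene lies on chromosome 4 at 145267137 to 145315164 (minus strand), with its promoter window given above. It had 3251, 3535, 3212 and 3025 normalised reads in cKO MED1 replicates 1 to 4, against 2669, 1918 and 2838 in WT replicates 1 to 3. All cKO MED1 libraries lay above all WT libraries, and WT replicate 2 lay well below the other WT libraries. The means were 3256 ± 211 in cKO MED1 cells and 2475 ± 490.0 in WT cells, a log2 fold change of 0.41 (SE 0.127, interval 0.14 to 0.69, limma adjusted p = 0.0340).

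The direction of Tnfrsf8 held under all 21 alternatives, at 0.17 to 0.53, and the call held under 11. It was 0.28 under the authors' scaling (limma adjusted p = 0.165) and 0.17 under total reads (0.483), and without WT replicate 2 it was 0.18 (0.258). The call was also lost without WT replicate 1, cKO MED1 replicate 1 or cKO MED1 replicate 2, at 0.43, 0.40 and 0.40. Without both cKO MED1 replicates 3 and 4 it was 0.48 (0.0789), with no filter 0.26 (0.208), and with the Y-linked covariate 0.40 (0.261). At the stricter threshold of 0.01 it was not called. By a fixed rule, the tested genes with the most similar pattern over the 7 libraries were Nabp1, Ptger4 and Sipa1l3, among 9430 compared. Their root mean square differences from Tnfrsf8 in centred log2 values were 0.068, 0.075 and 0.082.

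Tnfrsf1b encodes TNFR2, a TNF receptor without a death domain, and is the neighbour of Tnfrsf8 on the same strand of chromosome 4, at 145213463 to 145246870, with 20266 bp between them. It had 1973, 1959, 1998 and 1792 normalised reads in cKO MED1 libraries, against 1889.9, 1618 and 1726 in WT libraries. WT replicate 1 lay above cKO MED1 replicate 4, so the groups overlapped. The log2 fold change was 0.15 (SE 0.087, interval -0.04 to 0.34, limma adjusted p = 0.212), and its sign turned under total reads and with no filter on low counts.

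Fas encodes a death receptor whose engagement starts apoptosis through FADD and caspase-8, and lies on chromosome 19 at 34290666 to 34327772 (plus strand). It had 1473, 1949, 1545 and 1469.6 normalised reads in cKO MED1 libraries, against 1419.7, 1759 and 1299.8 in WT libraries. In both genotypes replicate 2 stood above the others, and the groups overlapped. The log2 fold change was 0.11 (SE 0.128, interval -0.17 to 0.39, limma adjusted p = 0.530), and it was below 0 under 4 of 21 alternatives.

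Traf1 encodes a TRAF without the RING domain of the other TRAFs, which pairs with TRAF2, and lies on chromosome 2 at 34941750 to 34961772 (minus strand). It had 5527, 5763, 4599 and 4938 normalised reads in cKO MED1 libraries, against 4528, 4855 and 4159.8 in WT libraries. Only WT replicate 2 reached into the cKO MED1 range. At 115% of WT the log2 fold change was 0.20 (SE 0.102, interval -0.02 to 0.43, limma adjusted p = 0.147), and it was called under 1 of 21 alternatives, a filter of 1 CPM in 3 libraries.

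Traf2 encodes the ring-finger adaptor that brings the ubiquitin ligases cIAP1 and cIAP2 to TNF receptors, and lies on chromosome 2 at 25517982 to 25546940 (minus strand). It had 1359, 1380.2, 1198 and 1217 normalised reads in cKO MED1 libraries, against 1544, 1451 and 1357 in WT libraries. Replicates 1 and 2 of cKO MED1 lay just above WT replicate 3, and the groups overlapped by that margin. The log2 fold change was -0.17 (SE 0.091, interval -0.37 to 0.03, limma adjusted p = 0.169), and it was called under none of the 21 alternatives.

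Traf1 was above WT on average and Traf2 below it, and their ratio kept the genotypes apart. The log2 ratio of Traf1 to Traf2 was 2.02, 2.06, 1.94 and 2.02 in cKO MED1 libraries and 1.55, 1.74 and 1.62 in WT libraries. The means were 2.01 ± 0.051 in cKO MED1 cells and 1.64 ± 0.097 in WT cells, 0.37 apart, and the groups did not overlap. The ratio is free of library scaling, was 1 of 4 examined, and carries no test. How many ratios of other gene pairs keep the genotypes apart was not examined, and 39.1% of single tested genes did so. The ratio of Traf3 to Traf2 overlapped between the genotypes, with means of 0.49 in cKO MED1 cells and 0.54 in WT cells.

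Traf3 encodes the adaptor that brings NIK to TRAF2 and the cIAP ligases for destruction, and lies on chromosome 12 at 111166370 to 111267153 (plus strand). It had 1898, 1794, 1721 and 1837 normalised reads in cKO MED1 libraries, against 2241, 1951 and 2139 in WT libraries. All cKO MED1 libraries lay below all WT libraries, with means of 1813 ± 74.6 in cKO MED1 cells and 2110.4 ± 147 in WT cells. The log2 fold change of -0.22 (SE 0.084, interval -0.40 to -0.03) had an unadjusted p of 0.0248 and a limma adjusted p of 0.0714. It was called under 5 of 21 alternatives, the same 5 as Tnfrsf13b, and without cKO MED1 replicate 1 it was -0.25 (limma adjusted p = 0.0418).

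Traf5 encodes an adaptor close to TRAF2 that acts below CD40, CD27 and other TNF receptors, and lies on chromosome 1 at 191997205 to 192092559 (minus strand). It had 734, 681, 693 and 721 normalised reads in cKO MED1 replicates 1 to 4, against 859, 949.8 and 820.0 in WT replicates 1 to 3. The cKO MED1 libraries lay close together and all below the WT libraries, with means of 707 ± 24.6 in cKO MED1 cells and 876 ± 66.6 in WT cells. The log2 fold change was -0.31 (SE 0.090, interval -0.50 to -0.11, limma adjusted p = 0.0292). Its exons share 65 bp with the microRNA gene Mir3473c and 205 bp with the antisense gene Gm26879. These had at most 1.60 and 6.82 normalised reads in any library, and no other member shares exon sequence with an annotated gene.

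Traf5 stayed below 0 under all 21 alternatives, at -0.55 to -0.19, and its call held under 11, among them the authors' scaling, total reads, edgeR and DESeq2. The call was lost without WT replicate 1 or 2 or without cKO MED1 replicate 2, 3 or 4, at -0.37, -0.30, -0.26, -0.27 and -0.29, and with the filter of 1 CPM it was -0.19 (limma adjusted p = 0.103). It was also lost with the replicate block at -0.32 (0.0558), with the Y-linked covariate at -0.34 (0.204), without both cKO MED1 replicates 3 and 4 at -0.30 (0.0937), and at the stricter threshold of 0.01. The genes with the most similar pattern over the 7 libraries were Stk17b, Pus3 and Snrnp35, at root mean square differences of 0.042, 0.046 and 0.048 among 9430 genes.

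The scaling of the libraries bears on all 10 fold changes. Relative to the fit used here, the fold changes of single genes shifted by a median of -0.13 under the authors' scaling and -0.24 under total reads. With them 4 members were called lower (Tnfrsf13b, Tnfrsf17, Traf3 and Traf5) and none higher, and 37.3% and 31.8% of all calls were higher, beside 47.8% here. A filter of 1 CPM in 3 libraries shifted the fold changes of genes in both fits by a median of 0.11. The median over the genes it tested was 0.02, beside 0.04 here. It called Tnfrsf8, Tnfrsf1b and Traf1 higher and none lower, with 55.3% of all calls higher. With no filter this shift of genes in both fits was -0.16, with 39.5% of all calls higher. The median over the 43065 genes tested without a filter was 0.35. With the Y-linked reads as a covariate, a fit in which cKO MED1 replicate 3 alone joins both sides, no member was called, while the fold changes of Tnfrsf8 and Traf5 were 0.40 and -0.34, beside 0.41 and -0.31 without it.

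**Figure D4:**
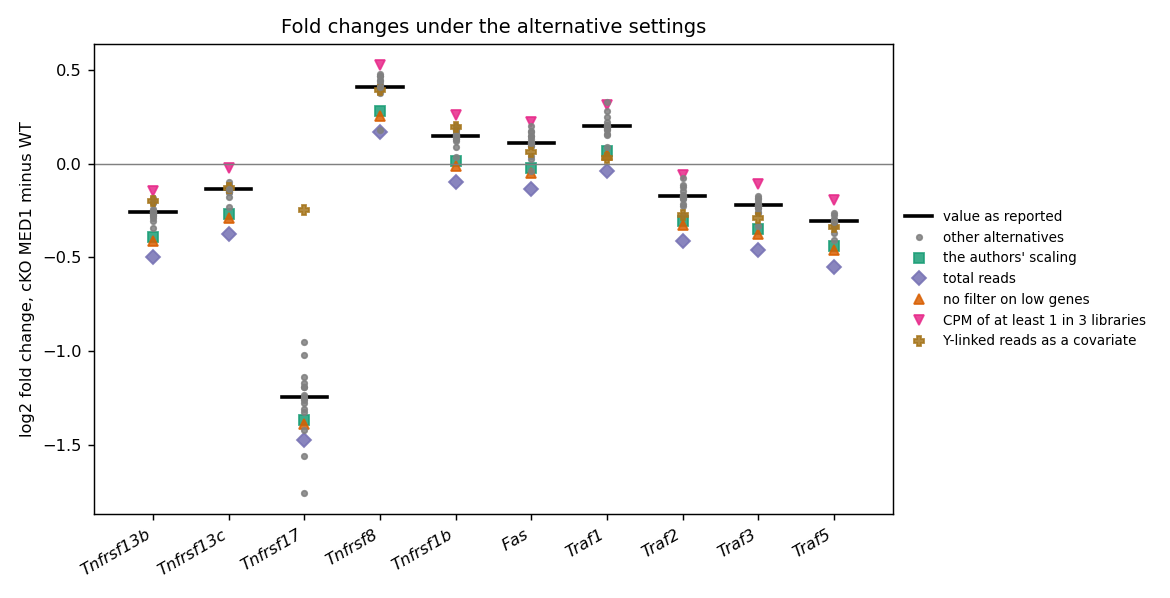
Log2 fold change, cKO MED1 minus WT, of each gene as reported (black bar) and under the alternative settings (points), with the scalings, filters and Y-linked covariate in colour. Tnfrsf8 stays above 0 at 0.17 to 0.53 and Traf5 below 0 at -0.55 to -0.19, and total reads give the lowest value for every gene except Tnfrsf17.

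Ligands of the family were mostly low in these cells. Of 17 listed, 12 were tested, 3 were called lower and none higher. The median log2 fold change was -0.27 beside 0.04 over all genes. For this list and those below, the shares over all tested genes were 14.6% called lower and 13.4% called higher. No list was tested as a set. Tnfsf8, which encodes the CD30 ligand, averaged 46.5 ± 2.01 normalised reads in cKO MED1 cells and 118 ± 17.3 in WT cells, a log2 fold change of -1.32 with an SE of 0.179 and a limma adjusted p of 0.00101. It was thus called lower where its receptor gene Tnfrsf8 was called higher. Tnfsf10, the death ligand TRAIL, changed by -0.85 (limma adjusted p = 0.0158) and Tnfsf11, the ligand RANKL, by -1.38 (0.0188). The ligands of the BAFF receptors were too low to test. BAFF (Tnfsf13b) had 2.71, 2.92, 7.90 and 5.49 normalised reads in cKO MED1 libraries and 0.688, 3.26 and 1.60 in WT libraries. APRIL (Tnfsf13) had 0, 0, 5.27 and 3.66 in cKO MED1 libraries and 0 in all 3 WT libraries. The APRIL values rest on 4 and 2 recovered reads in cKO MED1 replicates 3 and 4. In these libraries the olfactory and vomeronasal receptor genes gave 0.524 and 0.893 normalised reads per kb, the highest of all libraries.

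Of 22 other receptors of the family, 20 were tested, 1 was called higher and none lower, with a median of 0.29. Several of the 20 had few reads, and these went both ways. Tnfrsf25 had 7.80 to 45.8 normalised reads in cKO MED1 libraries and 6.53 to 10.4 in WT libraries. Ngfr had 0 to 6.59 in cKO MED1 libraries and 12.8 to 15.8 in WT libraries. The part of background reads in this median was not tested. The called gene was Tnfrsf9, the costimulatory receptor 4-1BB, which averaged 48.4 ± 12.6 normalised reads in cKO MED1 cells and 27.6 ± 3.14 in WT cells (log2 fold change 0.76, limma adjusted p = 0.0492). Its call held under 2 of 20 alternatives. Cd40 overlapped between the genotypes, at a log2 fold change of -0.04 (SE 0.122, interval -0.31 to 0.22, limma adjusted p = 0.812).

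Of 16 other TRAFs and TRAF-binding regulators, all tested, 1 was called higher and 3 lower, with a median of -0.13. Tank, which binds TRAFs and restrains their signal, was higher at 0.37 (limma adjusted p = 0.0169). Traip, a ubiquitin ligase known mainly from DNA replication, was lower at -0.62, the TRAF3-binding Traf3ip3 at -0.26 and the deubiquitinase Usp4 at -0.27, with limma adjusted p-values of 0.0104, 0.0434 and 0.0461. The genes of cIAP1 and cIAP2, the ligases that TRAF2 and TRAF3 bring to NIK, missed the threshold. Birc2 was at 0.25 (limma adjusted p = 0.0665) and Birc3 at -0.19 (0.102). Map3k14, which encodes NIK, was at 0.04 (SE 0.104, interval -0.19 to 0.26, limma adjusted p = 0.804), and Nfkb2, the precursor that NIK causes to be processed, at -0.34 (0.0684).

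Of 9 death domain and caspase-8 genes below Fas and TNF receptors, none was called higher and 2 were called lower, with a median of -0.23. These were Daxx, a histone chaperone first known as a Fas-binding protein, at -0.67 (limma adjusted p = 0.00630) and the Fas-associated factor Faf1 at -0.26 (0.0459). Of 14 linear ubiquitin and kinase genes, 1 was called higher and 2 lower, with a median of -0.06. Map3k5, the stress kinase ASK1, was higher at 0.42 (limma adjusted p = 0.0118), and Otulin, which removes linear ubiquitin chains, and the kinase partner Tab1 were lower at -0.53 and -0.31 (0.0123 and 0.0427). Of 8 NF-kB subunits and inhibitors, 1 was called higher and 1 lower, with a median of -0.24. Nfkbia, the inhibitor that NF-kB itself induces, was higher at 0.48 (limma adjusted p = 0.00393) and the inhibitor Nfkbib was lower at -0.38 (0.0370).

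**Figure D5:**
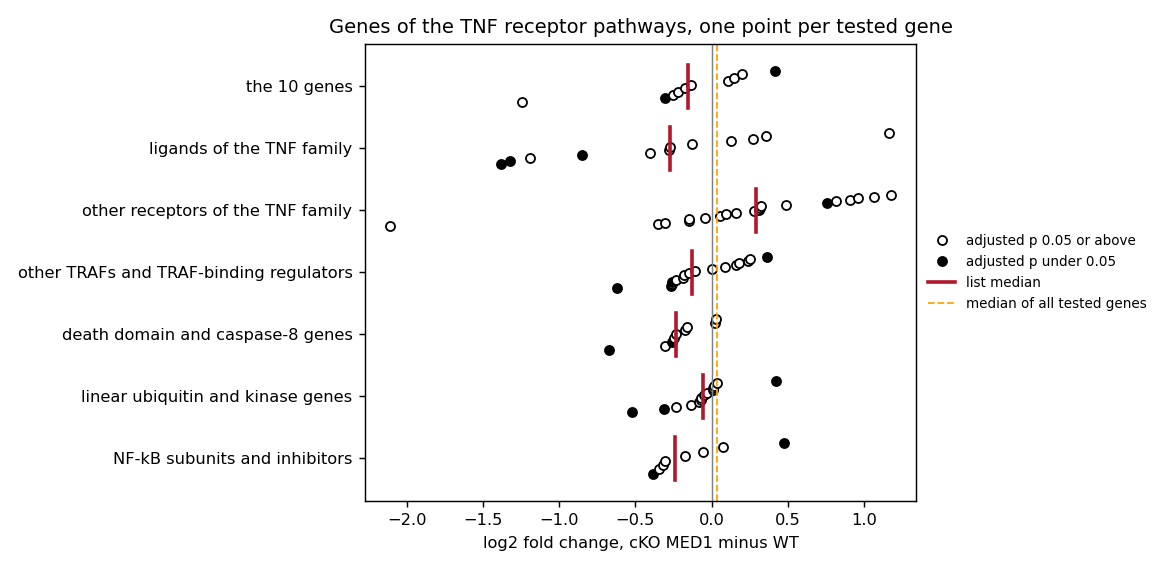
Log2 fold change, cKO MED1 minus WT, of every tested gene of the 10 members and of 6 pathway lists; filled points have a limma adjusted p under 0.05, red bars are list medians and the dashed line is the median of all tested genes. List medians run from -0.27 for the ligands to 0.29 for the other receptors, several of which had few reads.

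Among the called pathway genes, the calls of Tnfsf8, Daxx and Tnfsf10 held under 20, 19 and 19 of 21 alternatives, those of Traip and Otulin under 18 and 18, and that of Nfkbia under 17. Those of Map3k5 and Tank held under 14 and 13 of 21, and that of Tnfsf11 under 16 of 20. Those of Nfkbib, Faf1, Tab1, Traf3ip3 and Usp4 held under 12, 11, 10, 10 and 9 of 21. With the Y-linked covariate none of these 15 calls held (with Tnfrsf9 counted), at limma adjusted p-values of 0.0651 for Tnfsf8 to 0.363 for Tnfsf11. Leaving out WT replicate 1 ended the calls of Nfkbia, Map3k5, Tank, Tnfsf11, Nfkbib, Faf1, Tab1, Traf3ip3, Usp4 and Tnfrsf9. Each other single library ended at least 1 call among these genes when left out. No alternative tried reversed a direction among the called pathway genes.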

How the data were processed

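Total RNA of 7 B cell cultures was depleted of ribosomal RNA and made into stranded libraries, per the labels' protocols. The authors deposited 1 table for all libraries with a signal per gene, which the values show to be read counts divided by 1 size factor per library. Whole reads were recovered for 100% of values at a tolerance of 1e-06. The submitters' processing notes name the mouse build GRCm38, the aligner STAR (2.4.0a), featureCounts from Subread (1.5.0-p3), and DESeq2 run in R (3.4). They give no strand setting for the counts, and reads of a gene and its antisense partner may therefore be mixed.

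TMM factors from edgeR 4.0.16 brought the recovered reads to a common 48080600 per library, and filterByExpr kept 18062 genes. Their log2(normalised reads + 1) values in all 7 libraries were fitted by genotype with limma 3.58.1 (trend option, no covariates; R 4.3.3). The log2 scale with a pseudocount of 1 understates changes of low genes. Calls have a Benjamini-Hochberg adjusted p under 0.05 over all tested genes. The fit was also run on simulated counts in which few genes changed, up or down at random. That run cannot speak to the choice of scaling. Precision is given as SD between libraries, and no 2 libraries were closer than counting noise allows.

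The 10 members, the pathway lists and the markers were chosen with earlier results of these data known. Named are all members, Med1, up to 4 called genes of each pathway list with the smallest adjusted p, 7 further genes of the BAFF and NF-kB pathway whatever their result, and the 3 nearest genes in pattern (protein-coding symbols with a mean of at least 100 normalised reads) to each called member. Jchain, Sdc1, Prdm1, Flt3 and Pecam1 were named from the marker lists after their values were seen. Positions and exon lengths are from GENCODE M21, which placed 94% of features by symbol, and promoter windows of all 10 members are from RefSeq. Alternatives covered scaling, pseudocount, filter, test (edgeR, DESeq2 1.42.0 and limma-voom on recovered reads), threshold, a replicate block, a Y-linked covariate, background subtraction and omitted libraries.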

Additional observations from a re-analysis of the deposited data

Results flagged for a closer look

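In 38 series of 4 cKO MED1 values examined, 5 had 1 library set apart from the other 3. The rule flags about 1 series in 20 by chance when series are independent, which these were not. Tnfrsf13b, for example, entered both alone and in ratios, so the count of flags cannot be set against that rate. Tnfrsf13b stood at 5880.2 normalised reads in cKO MED1 replicate 4, against 6707 to 6794 in the other cKO MED1 libraries. The log2 ratio of Tnfrsf13b to Tnfrsf13c was -0.31 in the same library and -0.08, -0.07 and -0.08 in the others. Nfkbib, an inhibitor of NF-kB, stood at 455.7 normalised reads in cKO MED1 replicate 4, against 623, 610.2 and 614 in replicates 1 to 3. Fas stood at 1949 normalised reads in cKO MED1 replicate 2, against 1469.6 to 1545 in the other cKO MED1 libraries. Jchain stood at 27607 normalised reads in cKO MED1 replicate 3, against 10728 to 13429.9 in the others. WT groups of 3 libraries were not examined in this way.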

How the results depend on the processing

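Members called higher and lower numbered 1 and 1 as reported, with edgeR, with a pseudocount of 5 and with the replicate block. They numbered 1 and 2 with RLE factors, limma-voom and background subtraction, 1 and 3 with DESeq2, 0 and 4 under the authors' scaling, total reads and no filter, and 3 and 0 with the filter of 1 CPM. They numbered 0 and 0 at a threshold of 0.01 and with the Y-linked covariate, 0 and 1 without both cKO MED1 libraries 3 and 4, and 0 to 1 higher and 0 to 3 lower with single libraries left out. Whether the replicate numbers pair the cultures is not stated. Deviations of same-numbered libraries correlated at 0.51, -0.23 and 0.16, beside -0.58 to 0.40 for libraries of different numbers. So few correlations cannot decide the question. With the replicate block, Tnfrsf8 was called at 0.45 and Tnfrsf17 at -1.25, Traf5 was at -0.32 with a limma adjusted p of 0.0558, and 3741 genes were called beside 5065. Genes called numbered 1307 at 0.01, 228 with the Y-linked covariate, 2145 without both cKO MED1 libraries, 1556 without WT replicate 1 and 2812 without cKO MED1 replicate 4. Signs turned for Fas (-0.0225 under the authors' scaling, -0.13 under total reads, -0.0462 with no filter, -0.0367 to 0.178 over omitted libraries), Tnfrsf1b (-0.0956 under total reads, -0.00880 with no filter) and Traf1 (-0.0402 under total reads). They also turned for Map3k14 (-0.0950, -0.21, -0.12 and -0.0659 under the authors' scaling, total reads, no filter and the Y-linked covariate, -0.0827 to 0.118 over omitted libraries) and Cd40 (0.0708 with the filter of 1 CPM, 0.0396 with the covariate, -0.22 to 0.0177 over omitted libraries). None of these reversed values was called, and beyond the median shifts of single genes given above the cause was not tested. The low reads of Tnfrsf17, Tnfsf13b and Tnfsf13 limit what depth can show of them.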
